A study of Homo sapiens with 36 samples.

Results

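The replication-dependent histone genes are the genes, most of them in clusters, for the linker histone H1 and the core histones H2A, H2B, H3 and H4. They were chosen by name, as protein-coding genes with a symbol from H1-1 to H1-6 or a symbol that starts with H2AC, H2BC, H3C or H4C and a number. Of 70 such genes among the 61587 genes of the count table, the 52 with at least 36 counts over all libraries were kept. The libraries are from HEK293T, a human embryonic kidney cell line, made from a TXNL1 knockout clone that was isolated as a single cell, so every group, controls included, lacks the endogenous protein. Into this clone went an empty lentiviral vector (the vector line) or TXNL1 under a CMV promoter: WT, the D162R R234D form that does not bind the proteasome, or the SxxS form without the redox-active cysteines. Each line was given DMSO only (called untreated here), arsenite at 100 µM or hydrogen peroxide at 600 µM for 6 h, the doses being those of the study's methods, and 3 replicates per group gave 12 groups and 36 libraries. The study's methods say that cells in six-well plates were treated in triplicate. Nothing in the labels says that replicates were grown as separate cultures before that. The p-values thus measure the spread between these samples, which may be technical.

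DNA must be wrapped on new histones as it is copied, and these genes supply most of them during S phase. Their mRNAs are short, mostly without introns, and end in a stem-loop where other mRNAs carry a poly(A) tail. The protein SLBP binds the stem-loop, and a machinery built around the U7 small nuclear RNA cuts the transcript just after it. The mRNAs are degraded when replication ends or stops, while replication-independent histone genes such as H3-3A are transcribed throughout the cycle and are polyadenylated. A library that selects poly(A) RNA therefore holds a small part of these transcripts. The libraries here were mRNA libraries, and how the mRNA was selected is not given in the sources used here.

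The stem-loop is shown first, because it is the element that sets these transcripts apart from other mRNAs. It was found within 150 bases of the stop codon of 51 of the 52 kept genes, at 22 to 67 bases after it, and of 69 of all 70, the exception being H2BC12L. Among 20020 protein-coding genes, 72 (0.36%) had it, and the 3 outside the set were H2AX, H3-4 and H3-7. The 16 bases of the stem-loop are in capitals and 6 flanking bases on each side in lower case, all from GRCh38 and written 5′ to 3′ on the strand of the gene as DNA. The positions are on chromosome 6 and lie downstream of the stop codon of each gene.
H2BC12 (chr6:27146360-27146387, minus strand): cccaaaGGCTCTTTTAAGAGCCacttaa
H1-4 (chr6:26157089-26157116, plus strand): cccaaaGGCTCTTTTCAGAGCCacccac
H1-2 (chr6:26055738-26055765, minus strand): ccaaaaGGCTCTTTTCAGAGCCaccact
H2AC7 (chr6:26198783-26198810, minus strand): aacaaaGGCTCTTTTCAGAGCCacccat
H2BC17 (chr6:27893864-27893891, plus strand): tccaaaGGCTCTTTTCAGAGCCactcac
H2BC9 (chr6:26252049-26252076, plus strand): cccaaaGGCTCTTTTCAGAGCCacttaa
H3C2 (chr6:26031591-26031618, minus strand): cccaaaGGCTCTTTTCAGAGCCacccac
H3C6 (chr6:26225590-26225617, plus strand): tccaaaGGCTCTTCTCAGAGCCaaccac
H4C2 (chr6:26026895-26026922, minus strand): tccaatGGCCCTTTTCAGGGCCgcccac
H4C3 (chr6:26104311-26104338, plus strand): cccaaaGGCCCTTTTCAGGGCCgctcac

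The form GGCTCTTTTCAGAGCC occurred in 28 of the kept genes and in each of the H1, H2A, H2B and H3 families. The form of H2BC12, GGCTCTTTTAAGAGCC, occurred in 7, of which 5 are H2B genes. The H4 genes had either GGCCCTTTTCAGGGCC (8 genes) or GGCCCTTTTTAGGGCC (4 genes), and no kept gene outside the H4 family had those. H1-4 and H3C2, which rose with arsenite, and H2BC9, which was lower, carry the same 16 bases.

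The promoters of the genes share short elements. RefSeq promoter windows on GRCh38.p14 (250 bases before to 50 after a start) were found for 47 of the 52 genes, 51 windows in all. On either strand, the TATA box letters TATAAA were in 66.7% of them against 11.5% of all 35116 windows. The CCAAT letters were in 82.4% against 34.6%, with all 16 H2B windows but 1 of 10 H4 windows. The octamer ATTTGCAT, the letters that POU2F1 binds, was in 37.3% against 1.77%, and in 11 of 16 H2B and 7 of 12 H2A windows. The heat shock element, in its full 3-unit form, was in 0 of the 51 and in 0.49% of all windows. A match is a run of letters and not evidence of binding. Shown next are the 250 bases upstream of H2BC12, the most abundant member, and of H2BC9, a member that was lower with arsenite. Both hold CCAAT and the octamer, and TATAAA is in those of H2BC12 only. Matches to these 4 motifs on either strand are in capitals.
H2BC12 (chr6:27146859-27147108, minus strand): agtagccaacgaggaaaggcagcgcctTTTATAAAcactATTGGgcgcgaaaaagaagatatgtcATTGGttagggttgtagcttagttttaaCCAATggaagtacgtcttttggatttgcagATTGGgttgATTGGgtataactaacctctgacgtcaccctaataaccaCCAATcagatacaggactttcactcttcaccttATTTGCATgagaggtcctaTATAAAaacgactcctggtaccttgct
H2BC9 (chr6:26251364-26251613, plus strand): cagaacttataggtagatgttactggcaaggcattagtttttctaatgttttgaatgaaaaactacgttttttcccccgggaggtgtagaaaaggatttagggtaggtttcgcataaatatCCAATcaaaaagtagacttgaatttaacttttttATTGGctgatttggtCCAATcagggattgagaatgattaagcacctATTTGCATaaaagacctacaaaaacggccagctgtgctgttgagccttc

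Libraries held 42072410 to 174119002 counts (median 66016833), and 0.00727% to 0.0166% of the counts in a library fell on the 52 genes. TXNL1 mRNA was present at 28.6 to 31.7 CPM (counts scaled to the size of the library) in the untreated vector line and at 51.7 to 66.2 CPM in the untreated complemented lines, and the vector line was below every complemented line within each treatment. Of the 7 HEK293T markers, VIM, KRT8 and KRT18 were at 13.4 CPM or more in every library, LHX1 and NEFL at 0.575 to 3.12 CPM and PAX2 and NEFM under 1 CPM. With arsenite NEFL changed by -1.12 ± 0.08 (adjusted p = 1.78e-13) and PAX2 by 1.11 ± 0.14 (adjusted p = 2.86e-08) on the log2 scale. Of the markers of other cells, ALB reached 0.299 CPM, PTPRC 0.168 CPM, and HBB, CD3E and MYH7 at most 0.0404 CPM in any library. WT arsenite replicate 1 and WT hydrogen peroxide replicate 2 stood apart from their groups, with SDs of 0.50 and 0.57 of log2 CPM from the group median over genes against 0.0687 to 0.173 in the other 34 libraries. Counts of calls averaged over the lines, sums and the highest values that these libraries set in the histone genes below are given with and without them.

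Without treatment, 1 gene dominated. H2BC12, an H2B gene, had a mean of 46.2 CPM over the 12 untreated libraries (lowest 42.4, median 45.2, highest 51.7), and it took 52.1% to 58.2% of the summed level of the 52 genes in each library. Per length, as CPM per kb of the gene length in the count table, H2BC12 reached 93.3. Next came the linker histone H1-2 at 11.0, the H4 gene H4C3 at 5.43 and the H2A gene H2AC25 at 3.28 CPM per kb. The leading H3 genes were H3C10 at 0.746 and H3C12 at 0.550 CPM per kb. The remaining genes formed a slope with small steps down to H4C14 at 0.0214 CPM per kb. H2BC12 was above every other member in each of the 36 libraries, whereas H4C3 varied from 1.17 to 3.98 CPM over the untreated libraries.

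**Figure D1:**
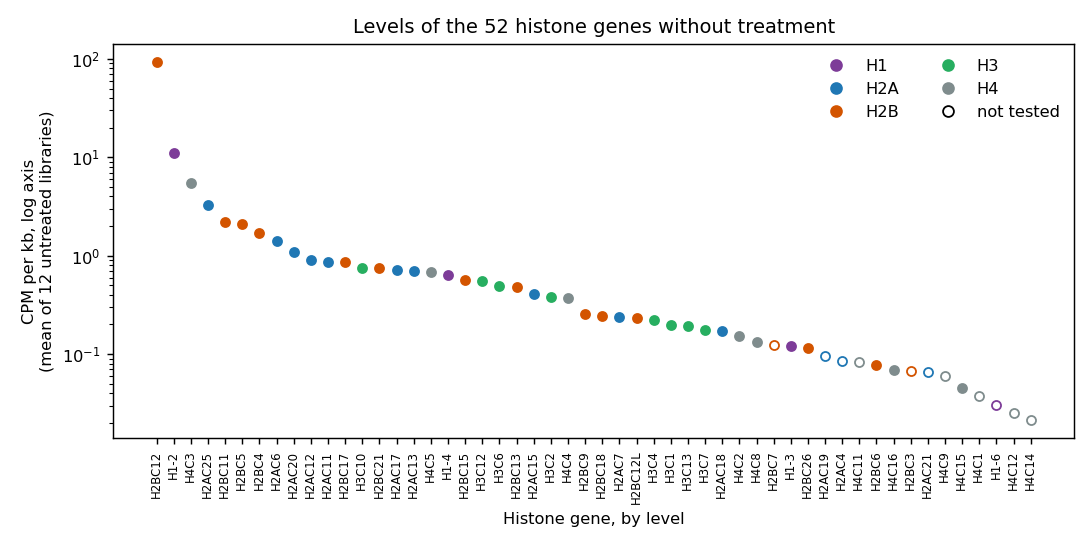
Level of the 52 histone genes as the mean CPM per kb of the 12 untreated libraries (log axis), ordered by level and coloured by family, with open points for the 11 genes not tested. H2BC12 at 93.3 CPM per kb stands above H1-2 at 11.0 and the rest.

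Of the 52 genes, 41 had the 10 counts over the 3 untreated vector libraries that the study's filter requires and were tested (3 H1, 10 H2A, 13 H2B, 8 H3 and 7 H4 genes). The other 11 were kept but not tested, and 18 genes had fewer than 36 counts, among them H1-1, H2AC1 and H2BC1, which are at or near 0. The 41 were thus chosen partly on their level in untreated vector cells. Counts on H2AC18, H2AC19, H4C14, H4C15 and H2BC12L are uncertain, since all of their 100-base windows occur elsewhere in the genome, and 11.9% of those of H3C13 do. In 46 kept genes no window does. Exons of 10 tested members overlap another gene, which are H2BC18, H2BC26, H2BC4, H2AC6, H2BC6, H3C4, H2AC7, H4C8, H3C12 and H2AC17. Whether strand was used in counting is not given in the sources used here, so reads of overlapping genes cannot be told apart.

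Arsenite raised the summed level of the histone genes in every line. The sum of the 52 genes was 76.2 to 89.7 CPM in the 12 untreated libraries (median 84.5) and 149 to 181 CPM in the 12 arsenite libraries (median 157), without overlap. In the vector line it went from 86.9 ± 2.66 to 156 ± 9.01 CPM (SD, n = 3), in WT from 82.4 ± 6.6 to 163 ± 15.7, in D162R R234D from 82.2 ± 6.10 to 158 ± 6.46 and in SxxS from 84.7 ± 4.17 to 156 ± 4.61. The value of 181 CPM belongs to the outlying WT library, and without it the highest is 166 CPM. Without H2BC12, the sum was 33.5 to 41.5 CPM in untreated and 57.3 to 81.4 CPM in arsenite libraries, or to 64.3 CPM without the outlying one. After hydrogen peroxide the sum was 72.1 to 111 CPM (median 82.8), which spans the untreated range, and the 111 CPM is the other outlying WT library, without which the highest is 95.2 CPM. These values are relative to all mRNA in a library, and bulk RNA cannot tell more histone mRNA per cell from more cells that hold it.

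**Figure D2:**
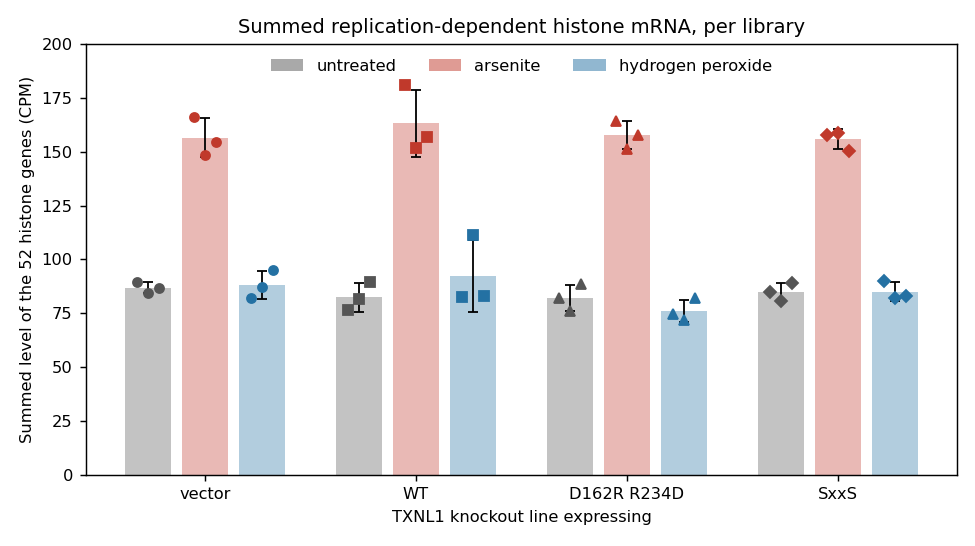
Summed level (CPM) of the 52 histone genes in each library, by line and treatment. Bars show the mean and SD of 3 replicates and points the libraries. All 12 arsenite libraries lie between 149 and 181 CPM, above the 12 untreated libraries at 76.2 to 89.7 CPM.

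The question for each oxidant was which genes respond to it and whether the response depends on TXNL1. With arsenite averaged over the 4 lines, 28 of the 41 tested histone genes rose and 2 fell (edgeR quasi-likelihood test, Benjamini-Hochberg adjusted p under 0.05), where 37.4% of all 22486 tested genes were called higher and 31.5% lower. The median log2 fold change was 0.656 for the 41 genes and 0.0603 for all genes, and 38 of the 41 had a positive value. Within lines, 19 rose and 0 fell in the vector line (22.1% of all genes higher and 21.4% lower). In WT 21 rose and 1 fell (28.7% and 24.9% of all genes), in D162R R234D 23 rose and 0 fell (22.5% and 21.5%), and in SxxS 21 rose and 0 fell (22.1% and 21.5%). Leaving out 1 of the 6 SxxS libraries at a time lowered that count to between 13 and 18, the 13 being without SxxS untreated replicate 2. Of the 41, 15 were called higher in each of the 4 lines, against 14.9% of all genes, and 27 in at least 1 line, against 36.9%. In 11 of the 41, all 12 arsenite libraries were above all 12 untreated libraries (13.4% of all genes), and in 0 were all below (16.6%). Those 11 are H1-2, H1-4, H2AC6, H2AC11, H2AC20, H2BC12, H2BC15, H2BC17, H3C2, H4C4 and H4C8. Without both outlying WT libraries, 26 rose and 2 fell, and the shares of all genes called in that fit were not computed. Arsenite libraries were deeper than untreated ones (median 82188000 against 60713500 counts), and the part of depth in the calls was not tested.

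**Figure D3:**
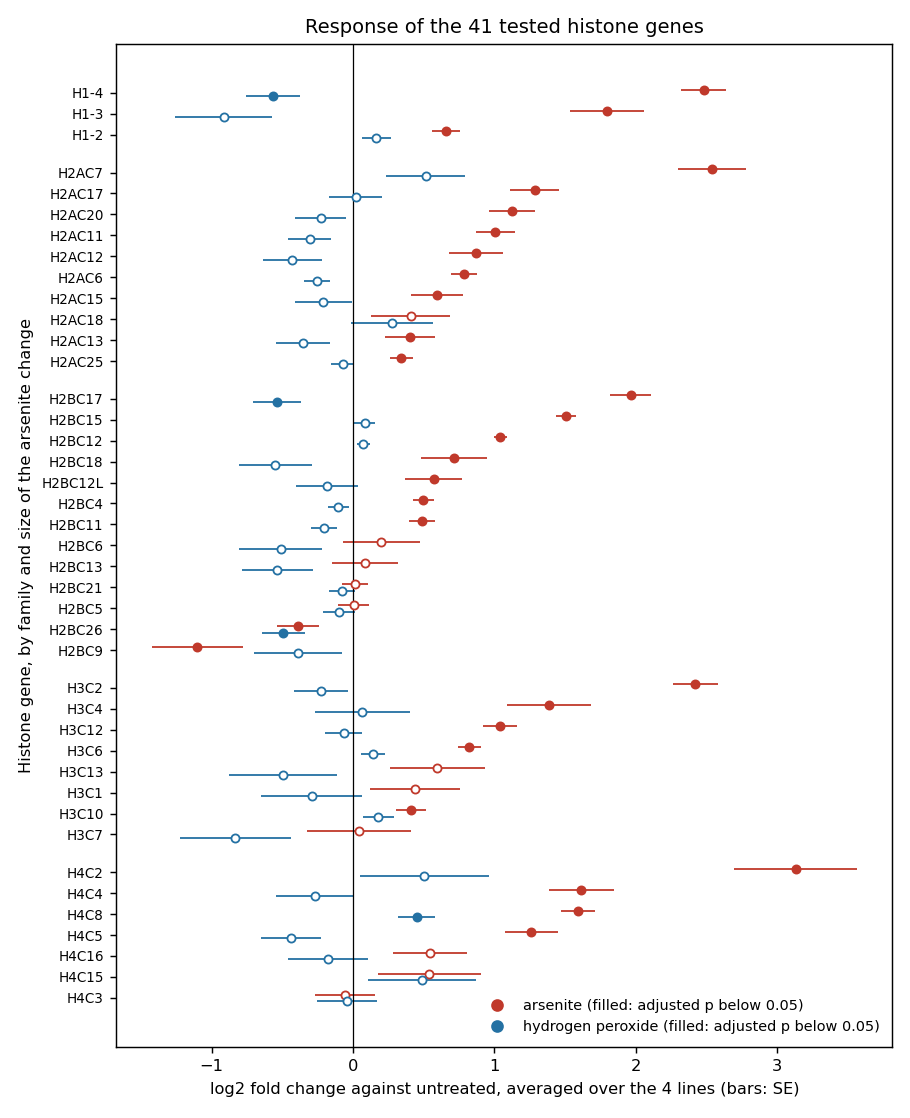
Log2 fold change against untreated cells, averaged over the 4 lines, with its SE, for the 41 tested histone genes by family. Filled points have an adjusted p below 0.05. Arsenite points (red) lie right of 0 for 38 genes, with H2BC9 as the lowest at -1.10, and hydrogen peroxide points (blue) lie left of 0 for 29 genes and right of it for 12, up to 0.51 for H2AC7.

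The linker histones bind DNA between nucleosomes, and all 3 tested H1 genes rose, where 37.4% of all genes were called higher. H1-4 was at 0.922, 0.655 and 0.734 CPM in untreated and at 3.06, 2.13 and 2.98 CPM in arsenite-treated vector replicates. Over the lines it was at 0.147 to 0.922 CPM (median 0.514) in untreated and at 2.01 to 3.75 CPM (median 2.89) in arsenite libraries, or to 3.11 CPM without the outlying one, so the treatments were separated in every line. The log2 fold change was 2.48 ± 0.16 (SE, adjusted p = 1.98e-14). H1-3, at 0 to 0.193 CPM in untreated libraries and 0.131 to 0.490 CPM with arsenite, rose by 1.80 ± 0.26 (adjusted p = 4.56e-07), with an overlap between the treatments. H1-2, the most abundant H1 gene, ranged from 5.71 to 10.0 CPM (median 8.12) without treatment and from 10.6 to 20 CPM (median 12.4) with arsenite. Its log2 fold change was smaller, 0.66 ± 0.10 (adjusted p = 1.14e-06), and 0.55 without both outlying WT libraries, 1 of which gave the 20 CPM, with 13.0 CPM as the next highest. The change of H1-2 was not called in the vector line alone (0.38 ± 0.20, adjusted p = 0.122).

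H2B pairs with H2A in the nucleosome, and in the H2B family 7 of 13 genes were higher and 2 lower. The shares of all genes were 37.4% and 31.5%. The family's median log2 fold change was 0.490. H2BC12 was at 49.6, 45.2 and 45.2 CPM in untreated vector replicates and at 102, 91.2 and 91.0 CPM with arsenite. Over the lines, the arsenite libraries lay at 89.0 to 102 CPM (median 94.6), and the 4 lines gave log2 fold changes of 1.02, 1.09, 1.05 and 1.01, each with an SE of 0.09. The average was 1.04 ± 0.04 (adjusted p = 1.34e-18). H2BC15 moved from 1.83 to 2.99 CPM (median 2.36) to 6.25 to 7.25 CPM (median 6.90), a log2 fold change of 1.51 ± 0.07 (adjusted p = 1.05e-17). H2BC17 lay at 0.260 to 0.522 CPM (median 0.412) and rose to 1.14 to 1.92 CPM (median 1.52, highest 1.83 without the outlying library), a log2 fold change of 1.96 (SE 0.14, adjusted p = 5.05e-13). In these 3 genes the arsenite and untreated libraries did not overlap. H2BC11, the next H2B gene per length, went from 1.5 to 2.73 CPM (median 2.41) to 2.53 to 3.95 CPM (median 3.11, highest 3.71 without the outlying library), a log2 fold change of 0.49 ± 0.09 (adjusted p = 2.04e-05), with overlap. In contrast, H2BC5 at 1.02 to 2.37 CPM and H2BC21 at 1.22 to 2.15 CPM without treatment were at 1.44 to 2.24 and 1.52 to 1.90 CPM with arsenite. Their log2 fold changes of 0.01 ± 0.11 and 0.02 ± 0.09 were within the spread of the replicates.

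The 2 falls were both in H2B genes. H2BC9 was at 0.0329 to 0.202 CPM (median 0.0976) in untreated and at 0.0193 to 0.163 CPM (median 0.0519) in arsenite libraries, which is 88 and 58 counts in all over 12 libraries each. Its log2 fold change was -1.10 ± 0.32 (adjusted p = 0.00367). The fall was called in WT, where the log2 fold change was -2.13 (adjusted p = 0.00954), and in no other line. The WT replicates had 11, 3 and 11 counts untreated and 3, 1 and 5 with arsenite, the 3 being in the outlying library. The fitted change in D162R R234D was 0.01 ± 0.57 (adjusted p = 0.995). H2BC26 was at 0.443 to 0.742 CPM (median 0.555) in untreated and at 0.174 to 0.672 CPM (median 0.421) in arsenite libraries, a log2 fold change of -0.39 ± 0.15 (adjusted p = 0.0230). Without WT arsenite replicate 1, one of the outlying libraries, its adjusted p was 0.0544. Both genes had overlapping ranges, so neither fall was seen in every library.

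**Figure D4:**
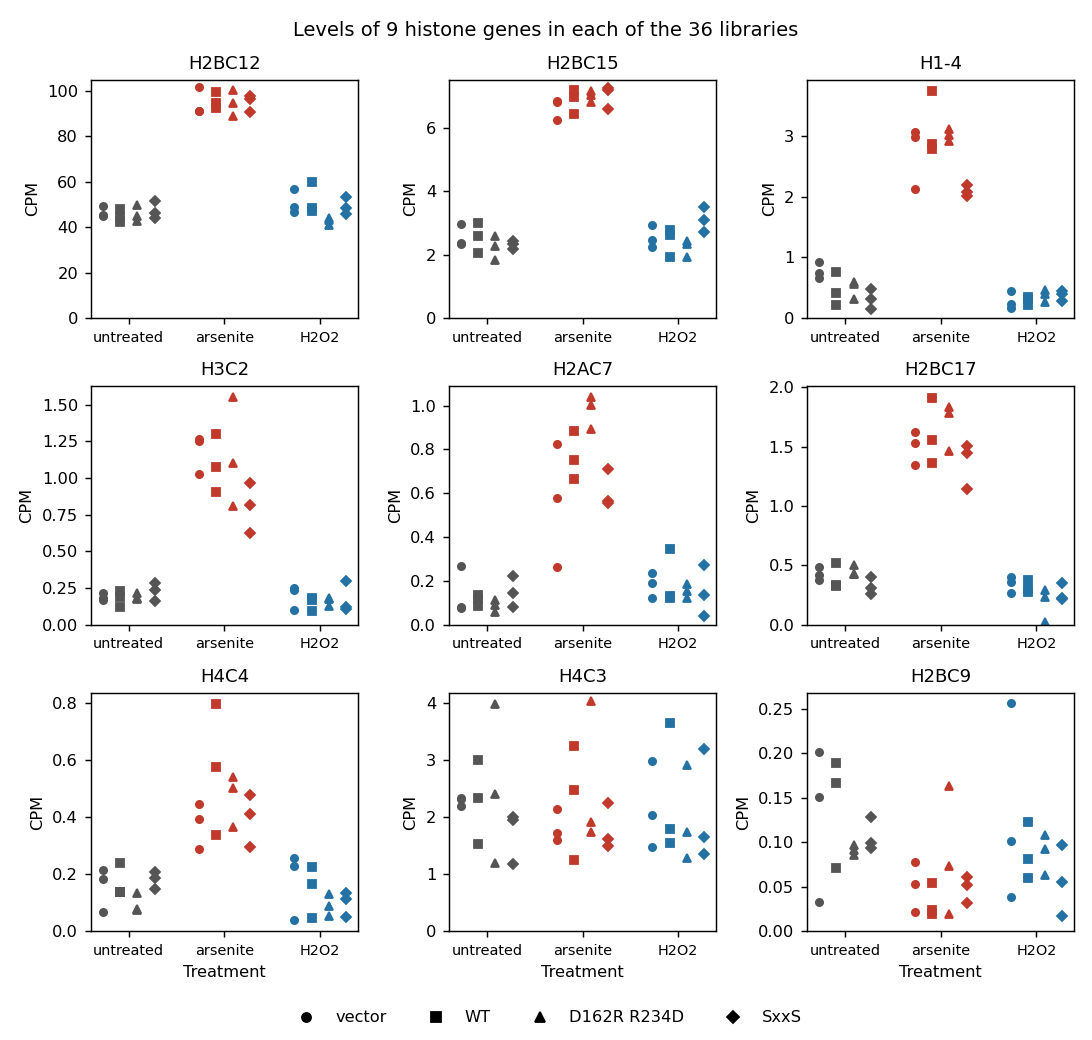
CPM of 9 histone genes in each of the 36 libraries, by treatment and line (marker shape). H2BC12, H2BC15, H1-4, H3C2, H2BC17 and H4C4 in arsenite libraries are above all untreated libraries, H2AC7 overlaps in 1 vector library, and H4C3 and H2BC9 overlap.

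Of the 10 tested H2A genes, 9 rose and 0 fell (37.4% and 31.5% of all genes), with a median log2 fold change of 0.828. H2AC7 was at 0.0823, 0.269 and 0.0734 CPM in untreated and at 0.262, 0.826 and 0.576 CPM in arsenite-treated vector replicates. Over all lines it ranged from 0.0578 to 0.269 CPM (median 0.100) and from 0.262 to 1.04 CPM (median 0.730). Its log2 fold change was 2.54 ± 0.24 (adjusted p = 1.20e-10), and its exons lie within those of another annotated gene on the same strand. H2AC25, at 4.63 to 7.19 CPM the H2A gene with the highest level per length, changed by 0.34 ± 0.08 (adjusted p = 0.000522). H2AC6, next in that order, was at 1.70 to 3.06 CPM (median 2.35) and 3.08 to 5.41 CPM (median 4.03) and rose by 0.79 ± 0.09 (adjusted p = 7.26e-09). H2AC18, whose sequence is repeated, had 0.41 ± 0.28 and was not called (adjusted p = 0.193).

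H3 and H4 form the tetramer at the core of the nucleosome. Of the 8 H3 genes, 5 rose and 0 fell (37.4% and 31.5% of all genes), with a median of 0.710. H3C2 was at 0.181, 0.218 and 0.165 CPM in untreated and at 1.03, 1.26 and 1.25 CPM in arsenite-treated vector replicates. Over the lines it went from 0.120 to 0.281 CPM (median 0.186) to 0.625 to 1.55 CPM (median 1.05), a log2 fold change of 2.42 ± 0.16 (adjusted p = 3.37e-14). The most abundant H3 genes per length, H3C10 and H3C12, changed by 0.41 ± 0.11 (adjusted p = 0.00129) and 1.04 ± 0.12 (adjusted p = 8.72e-09). Exons of H3C12 overlap those of H2AC17 on the same strand, so the rises of H3C12 and H2AC17 may not be independent. H3C1, H3C7 and H3C13 were not called, at log2 fold changes of 0.44 ± 0.32, 0.04 ± 0.37 and 0.60 ± 0.34.

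Of the 7 H4 genes, 4 rose and 0 fell (37.4% and 31.5% of all genes), with a median of 1.26. H4C4 was at 0.0672 to 0.237 CPM (median 0.143) in untreated and at 0.288 to 0.797 CPM (median 0.428, highest 0.576 without the outlying one) in arsenite libraries, a log2 fold change of 1.62 ± 0.23 (adjusted p = 3.75e-07). H4C8 was at 0.174 to 0.385 CPM and 0.636 to 1.09 CPM and rose by 1.59 ± 0.12 (adjusted p = 1.43e-12), and H4C5 rose by 1.26 ± 0.19 (adjusted p = 6.50e-07). H4C2 had a fitted average of 3.13 ± 0.43 (adjusted p = 3.66e-07), but its 3 untreated D162R R234D libraries had 0 counts, so the fit of that line depends on the prior count. Against a floor of 3 counts set for that group, its 56 arsenite counts make it 17.5-fold higher in CPM. That value leaves out the spread between replicates and is not a firm lower bound. The mean of the fits of the other 3 lines was 1.75. The most abundant H4 gene, H4C3, did not follow. It was at 1.17 to 3.98 CPM (median 2.25) in untreated and at 1.25 to 4.03 CPM (median 1.82) in arsenite libraries, a log2 fold change of -0.05 ± 0.21 (adjusted p = 0.831).

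Most tested members lie in the large cluster on chromosome 6, where 24 of 31 rose and 1 fell with arsenite (median log2 fold change 0.870). In the first cluster on chromosome 1, 2 of 6 rose and 0 fell (median 0.569). Of all genes, 37.4% were called higher and 31.5% lower. In that first cluster H3C13, H2AC18 and H4C15 were at 0.0909, 0.0914 and 0.0848 CPM without treatment. They also hold windows found elsewhere in the genome. The other chromosome 1 cluster holds H2AC25, which rose, and H2BC26, which fell. Outside these clusters lie H4C16 on chromosome 12, which was not called, and H2BC12L on chromosome 21, which was called higher. Pairs of members that start back to back shared the direction in some cases and not in others. H2BC17 and H2AC17, 240 bases apart, changed by 1.96 and 1.29, H2BC12 and H2AC12, 251 bases apart, by 1.04 and 0.87, and H2AC15 and H2BC15, 170 bases apart, by 0.60 and 1.51, all called. H2BC21 and H2AC20, 236 bases apart, had 0.02 (not called) and 1.12 (adjusted p = 5.23e-07), and H2AC25 and H2BC26, 230 bases apart, had 0.34 and -0.39.

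The annotation of these genes ends at 2 kinds of place. In GENCODE 44, 25 tested members end within 20 bases after the stem-loop, and 18 of these rose and 1 fell (median log2 fold change 1.04). A further 15 have a transcript that runs on past the stem-loop, and 9 of these rose and 1 fell (median 0.499). For both kinds the shares of all genes were 37.4% higher and 31.5% lower. H2BC15, H4C8 and H2AC6 run past the stem-loop, and H2BC12, H1-4 and H3C2 end at it. By level, 8 of the 11 members with a mean of at least 1 CPM in untreated libraries rose and 0 fell (median 0.499). Of the 11 members between 0.3 and 1 CPM, 10 rose and 1 fell (median 1.01). Of the 19 below 0.3 CPM, 10 rose and 1 fell (median 0.596). The shares of 37.4% and 31.5% are over genes of all levels, and shares of all genes within each level were not computed.

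Among the 11 members too low for the filter, H2AC4 had 34 counts over the 12 untreated and 438 over the 12 arsenite libraries. Its level was 0 to 0.116 CPM (median 0.0465) and 0.218 to 0.765 CPM (median 0.336, highest 0.586 without the outlying library), without overlap. As mean CPM, which allows for depth, H2AC21 went from 0.0324 to 0.116, H4C1 from 0.0152 to 0.0536 and H2BC7 from 0.0581 to 0.152, while H2BC3 went from 0.0329 to 0.0115. The other 6, which were not called, had mean levels of 0.0321 and 0.0475 CPM for H4C11, 0.00963 and 0.0235 for H4C12, 0.0219 and 0.0346 for H1-6, 0.0238 and 0.0165 for H4C9, 0.0401 and 0.0368 for H4C14, and 0.0505 and 0.0636 for H2AC19. When all genes with a count were tested, H2AC4 had a log2 fold change of 3.17 ± 0.35 (adjusted p = 3.53e-10). H2AC21, H4C1, H2BC7 and, as a fall, H2BC3 (adjusted p = 0.0496) were also called. The share of all genes called in that fit was not computed. Exons of H2AC21 overlap BOLA1 on the opposite strand, so reads of these genes cannot be told apart here.

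Hydrogen peroxide gave few calls, in these genes as in all tested genes. In edgeR's test, 0 of the 41 were called in any line, where the share of all genes called in either direction was 1.35% in the vector line and 8.06% in WT. It was 1.03% in the D162R R234D line and 1.02% in the SxxS line. At an unadjusted p under 0.05 there were 3, 6, 4 and 5, against 11.3%, 25.2%, 10.7% and 9.82% of all genes, and DESeq2 called 1, 1, 1 and 0. Averaged over the lines, 1 gene rose and 3 fell, where 6.78% of all genes were higher and 5.30% lower. The median log2 fold change was -0.202 against 0.00494 for all genes, and 12 of the 41 values were positive. In 0 members were all peroxide libraries above all untreated ones (0.551% of all genes) or all below (0.600%). Without both outlying WT libraries, 1 gene rose and 7 fell, and the shares of all genes called in that fit were not computed.

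The gene that rose was H4C8, at 0.174 to 0.385 CPM (median 0.275) in untreated and 0.231 to 0.608 CPM (median 0.397) in peroxide libraries, a log2 fold change of 0.45 ± 0.13 (adjusted p = 0.0224). H1-4 fell by 0.56 on the log2 scale (SE 0.19, adjusted p = 0.0495), from a median of 0.514 to one of 0.322 CPM. H2BC17 fell by 0.53 (SE 0.17, adjusted p = 0.0357), from a median of 0.412 to one of 0.284 CPM, and H2BC26 by 0.49 (SE 0.15, adjusted p = 0.0317), from a median of 0.555 to one of 0.418 CPM. The ranges of all 4 overlapped those of untreated libraries. For H2BC12, at 41 to 60.1 CPM (median 47.6, highest 56.9 without the outlying library) after peroxide, the log2 fold change was 0.07 ± 0.04 (adjusted p = 0.343). Leaving out WT hydrogen peroxide replicate 3 left 0 calls in this comparison, and leaving out SxxS hydrogen peroxide replicate 2 left 1.

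Set directly against hydrogen peroxide over the same lines, arsenite gave higher levels for 32 of the 41 genes and lower levels for 0, where 37.3% of all genes were higher and 31.3% lower. The untreated libraries do not enter this contrast. H1-4 was 3.05 ± 0.17 higher on the log2 scale (adjusted p = 4.05e-16), with medians of 2.89 and 0.322 CPM and no overlap of libraries. H3C2 was 2.65 ± 0.16 higher (adjusted p = 5.25e-15) and H2BC12 0.97 ± 0.04 (adjusted p = 6.93e-18). H4C3, at -0.01 ± 0.21, and H2BC5, at 0.10 ± 0.11, were not called.

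No difference between the lines passed the test. Among untreated lines, 0 of the 41 genes were called in WT against vector (0.196% of all genes), in D162R R234D against vector (0.0267%) and in SxxS against vector (0.0178%), with 5, 3 and 1 at an unadjusted p under 0.05 (7%, 3.12% and 3.31% of all genes) and 0 in each by DESeq2. The lowest p in each contrast belonged to H2BC4 in WT, with a log2 difference from vector of 0.61 ± 0.15 (adjusted p = 0.105), to H4C2 in D162R R234D, where it had 0 counts (adjusted p = 0.365), and to H1-4 in SxxS, with -1.31 ± 0.36 (adjusted p = 0.618). H1-4 was at 0.470, 0.147 and 0.305 CPM in untreated SxxS replicates, all below the vector replicates, and at 2.08, 2.18 and 2.01 CPM with arsenite. A test of whether the arsenite response differed between the lines called 0 of the 41 genes and 0% of all genes, with 2 members, H4C2 and H2AC15, at an unadjusted p under 0.05 (6.37% of all genes). For hydrogen peroxide it called 0 of the 41 and 0.685% of all genes, with 5 members, H1-4, H2AC25, H2BC4, H4C2 and H4C8, at an unadjusted p under 0.05 (8.76% of all genes). DESeq2 called 0 in both. The SE of the arsenite response in the vector line was 0.09 for H2BC12 but 0.63 for H2BC9, a low gene whose response was thus less certain. The smallest difference between lines that the test could detect was not computed.

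The listed genes of histone mRNA transcription, processing and decay mostly fell with arsenite. Of 22 listed factors, 14 fell and 5 rose, with a median log2 fold change of -0.26 against 0.06 for all genes, of which 31.5% fell and 37.4% rose. CASP8AP2, the FLASH protein that works with the U7 particle, was at 34.5 to 46.6 CPM (median 43.5) in untreated and at 13.7 to 17.9 CPM (median 15.6) in arsenite libraries, a log2 fold change of -1.44 ± 0.07 (adjusted p = 2.71e-17). LSM11, a U7-specific ring protein, went from 18.1 to 22.9 CPM to 7.18 to 11.4 CPM (-1.01 ± 0.06, adjusted p = 5.60e-15). NPAT, the coactivator of histone gene transcription, went from 24.5 to 35 CPM to 9.53 to 19.9 CPM (-0.84 ± 0.11, adjusted p = 4.51e-08). All 3 were lower in every arsenite library than in any untreated library. SLBP fell less, from 130 to 146 CPM to 109 to 120 CPM (-0.30 ± 0.02, adjusted p = 1.51e-13).

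ZNF473, a zinc finger protein of the U7 particle, moved the other way, from 36 to 42.2 CPM to 108 to 161 CPM (1.84 ± 0.04, adjusted p = 1.55e-26). The endonuclease CPSF3 and the scaffold SYMPK of the cleavage complex rose by 0.12 ± 0.02 and 0.20 ± 0.03, LSM10, the partner of LSM11, changed by -0.44 ± 0.08, CPSF2 by -0.60 ± 0.06, and CSTF2T, a relative of the cleavage factor CSTF2, by -1.19 ± 0.03. POU2F1, which binds the octamer, changed by -0.42 ± 0.06, and UPF1, which takes part in histone mRNA decay, by -0.37 ± 0.03. After hydrogen peroxide, 2 of the 22 rose and 1 fell, where 6.78% of all genes rose and 5.30% fell. SLBP rose by 0.11 ± 0.02 (adjusted p = 0.000318), UPF1 by 0.13 ± 0.03 (adjusted p = 0.00816), and CPSF3 fell by 0.08 (SE 0.02, adjusted p = 0.0335). Whether any of these changes bears on the histone mRNAs was not tested.

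**Figure D5:**
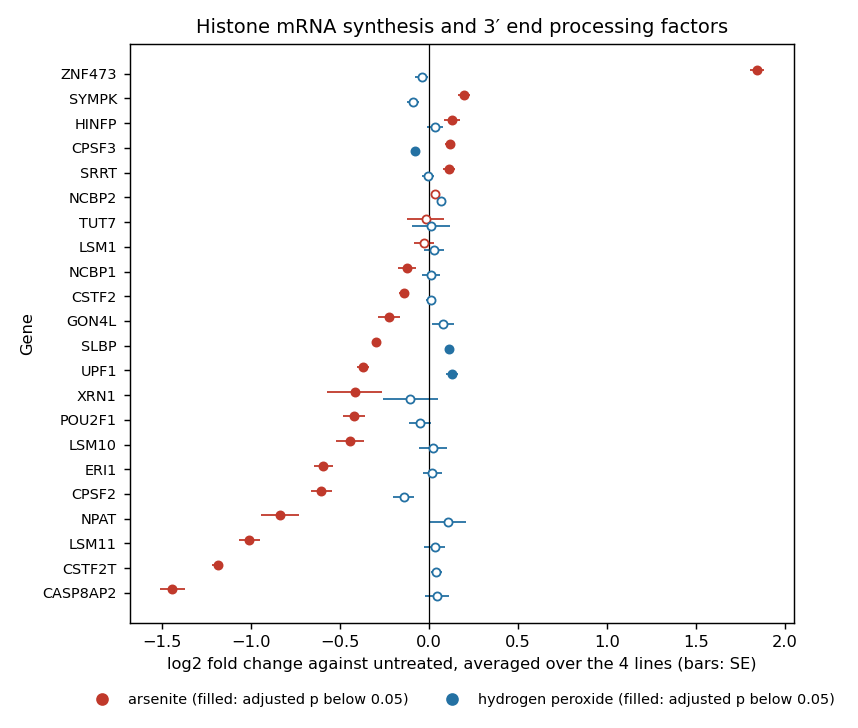
Log2 fold change against untreated cells, averaged over the 4 lines, with its SE, for 22 genes of histone mRNA transcription, processing and decay. Filled points have an adjusted p below 0.05. With arsenite (red) 14 lie below 0 and pass, down to CASP8AP2 at -1.44, and ZNF473 at 1.84 is the highest, while hydrogen peroxide values (blue) lie within 0.2 of 0.

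Replication-independent histone genes did not rise as a group with arsenite. Of 11 tested, 2 rose and 8 fell (37.4% and 31.5% of all genes), with a median log2 fold change of -0.17 against 0.06 for all genes. H2AX, a H2A variant of DNA damage signalling that is outside the set but has the stem-loop, went from 61.1 to 99.7 CPM to 32.3 to 54.6 CPM (-0.95 ± 0.07, adjusted p = 1.85e-12). CENPA, the H3 variant of centromeres, changed by -1.10 ± 0.04 (adjusted p = 2.92e-19), H2AZ1 by -0.32 ± 0.05, and H3-3A and H3-3B by -0.08 ± 0.04 and -0.17 ± 0.02. MACROH2A1 and MACROH2A2 rose by 0.18 ± 0.02 and 0.22 ± 0.04.

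Genes of the cell cycle are given because histone mRNA follows S phase. With arsenite, 6 of 16 S phase genes rose and 8 fell (37.4% and 31.5% of all genes), among them PCNA, the clamp of the replication fork, at -1.01 ± 0.04, and CDC6, a licensing factor, at 0.47 ± 0.02. Their summed level was 3851 to 4022 CPM in untreated and 3593 to 3736 CPM in arsenite libraries. Of 12 G2 and M genes, 3 rose and 6 fell against the same shares, with summed levels of 2351 to 2468 and 1988 to 2110 CPM. After hydrogen peroxide, 12 of 16 S phase genes rose and 0 fell (6.78% and 5.30% of all genes; sum 4183 to 4551 CPM, or to 4353 without the outlying library), and 0 of 12 G2 and M genes rose and 11 fell (sum 1700 to 1829 CPM, or from 1768). The part of cell cycle position in the histone levels was not tested.

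RNAs that are made without a poly(A) tail are given because their level depends on how mRNA was selected. Of 7 tested with arsenite, 2 rose and 4 fell (37.4% and 31.5% of all genes). RPPH1, the RNA of RNase P, was at 0.166 to 0.513 CPM and 0.990 to 2.20 CPM (1.96 ± 0.18, adjusted p = 5.94e-11), and RN7SK, a regulator of transcription elongation, changed by 0.98 ± 0.16. RN7SL1 and RN7SL2 of the signal recognition particle changed by -0.35 ± 0.11 and -0.49 ± 0.11, and SNORD3A by -1.04 ± 0.14. The summed level of the list was 24.8 to 68.5 CPM in untreated, 20.4 to 41.6 CPM (38.2 without the outlying library) in arsenite and 24.5 to 41.6 CPM in peroxide libraries, most of it RN7SL1 and RN7SL2. The 68.5 CPM belongs to WT untreated replicate 3, and the next highest untreated library was at 41.4 CPM. The part of mRNA selection in the histone levels was not tested. Whether polyadenylated forms of the histone mRNAs or carried-over forms without a tail were counted cannot be told apart in a table of counts per gene.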

How the data were processed

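RNA was extracted with a column kit and made into strand-specific mRNA libraries. The authors aligned paired-end reads to GRCh38 with qAlign of QuasR, and DESeq2 is named in the submitters' processing notes. They deposited raw counts per gene for 36 libraries, with a gene length that is used here for levels per kb. The annotation, the use of strand and the treatment of reads with several matches are not given in the sources used here. Gene identifiers were matched to GENCODE 44 (61369 of 61587). Groups came from the sample labels, and all per-sample columns were matched.

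The 22486 genes with at least 10 counts over the 3 untreated vector libraries were tested with edgeR 4.0.16 in R 4.3.3 (TMM scaling, all 36 libraries in 1 fit with a mean for each group, robust quasi-likelihood tests, Benjamini-Hochberg adjustment over the tested genes, threshold 0.05). The biological coefficient of variation was 12.4%. CPM were computed with edgeR from the deposited counts and TMM library sizes. Code was tested on simulated data. Replicates differed by more than sampling noise, with a chi-square between 3.31 and 342.7 times its degrees of freedom.

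The genes and lists were chosen with earlier results of these data known. Named by rule were the 2 genes of highest level per length in each family, the 5 largest rises and falls among genes called for either oxidant, the kept genes not tested, and, from the lists of genes around the family (not the cell markers), a fixed set and any gene called with a log2 fold change of 1 or more in size. Members named beyond these were chosen after their values were seen. Alternatives were other scalings and filters, DESeq2 1.42.0, fewer groups, offsets for GC content or length, a replicate block, a fold threshold, halved counts and libraries left out. The values of 1 gene of the lists are not reported here. The study's protein measurements were not analysed here.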

Additional observations from a re-analysis of the deposited data

How the results depend on the processing

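Without 1 library at a time, the arsenite calls among the 41 histone genes ranged from 13 to 19 in the vector line, 20 to 22 in WT, 18 to 22 in D162R R234D, 13 to 18 in SxxS, 28 to 31 averaged over the lines and 30 to 34 against hydrogen peroxide. The 13 in SxxS came without its untreated replicate 2, whose omission moved the count of 21 by over 1.5 times. With a log2 fold change of at least 1, SxxS had 12 calls, the average 17 and the contrast with hydrogen peroxide 19. Hydrogen peroxide calls were few and depended on the processing. In the vector line there was 1 with total counts, edgeR's own filter, an offset for GC content, that offset with a replicate block, an offset for gene length or DESeq2, and 2 without both outlying WT libraries or with only the groups compared. In WT there were 2 with an offset for gene length and 1 with DESeq2, in D162R R234D 3 without both outlying libraries and 1 with DESeq2, and in SxxS 2 and, with only the groups compared, 1. Averaged over the lines, the 4 calls became 0 with no filter or a log2 fold change of at least 1, 1 with only the groups compared, 2 with halved counts and 8 without both outlying libraries. Without 1 library the hydrogen peroxide calls ranged from 0 to 1 (vector), 0 to 2 (WT), 0 to 1 (D162R R234D), 0 to 1 (SxxS) and 0 to 5 (averaged). WT gave 1 without its untreated replicate 1 and 2 without its hydrogen peroxide replicate 1 or 3, and 1 call came in vector, D162R R234D and SxxS without vector hydrogen peroxide replicate 2, D162R R234D hydrogen peroxide replicate 1 and SxxS untreated replicate 3. The average gave 2 calls without vector untreated replicate 1 or 2, untreated replicate 1 of D162R R234D or SxxS, vector hydrogen peroxide replicate 1 or 3, or D162R R234D hydrogen peroxide replicate 2. Untreated line contrasts and interactions had 0 calls without any 1 library. WT against vector had 1 call without both outlying libraries and SxxS against vector 1 with only the groups compared. In each case the cause was not tested, and the shares of all genes called in these fits were not computed. No named gene that was called reversed its direction. For the named genes, 608 arsenite values kept their side of the threshold and 4, all of H2BC26, lost it, while 557 hydrogen peroxide values kept theirs, 47 lost it and 8 gained it.

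Replicate numbers did not pair the samples. The correlation of deviations had a median of 0.0181 for the same number and -0.0112 for different numbers. With the replicate block the arsenite counts were 19, 22, 23 and 21 in the lines and 30 averaged, the hydrogen peroxide average was 3 and the contrast of the oxidants 33. Depth limits the low genes, of which 19 of the 41 had a mean under 0.3 CPM without treatment, and counting error alone is large there.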
